A study of Mus musculus with 130 samples.

Results

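The 37 genes carried by the mouse mitochondrial genome were followed in 10 RNA-seq libraries of embryonic stem cells. They were all genes of the deposited tables whose symbol starts with mt-, 37 of 52550 genes: 13 protein-coding genes, 2 ribosomal RNA (rRNA) genes and 22 transfer RNA (tRNA) genes. All 37 are on the mitochondrial chromosome (MT) of GRCm38, and all 37 had the same length in the deposited tables and in RefSeq. The members were chosen by name, so none of their values entered the choice.

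The mitochondrial genome is a small circle present in many copies per cell. Its 13 proteins are all subunits of the oxidative phosphorylation complexes: NADH dehydrogenase (complex I), the cytochrome bc1 complex (complex III), cytochrome c oxidase (complex IV) and ATP synthase (complex V). Each strand is transcribed as a long precursor by a dedicated RNA polymerase, and tRNAs lying between the other genes mark most of the places where the precursor is cut into single RNAs. The 2 rRNAs and 12 of the mRNAs come from the heavy-strand precursor, and mt-Nd6 comes from the other. All remaining subunits, the mitochondrial ribosomal proteins and the transcription machinery are encoded in the nucleus. Mouse embryonic stem cells are known for using glycolysis beside oxidative phosphorylation.

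Each library was the only one of its group, grown on gelatin in serum with LIF, and 120 of the 130 samples of the series were not analysed here. From line TT2 (C57BL/6xCBA) there were wild type (WT TT2), G9a CM and a library labelled G9a/GLP DKO. G9a CM has genotype G9a-/- Tg(Y1120V;Y1207F), clone G7, so it lacks its own G9a and carries a transgene with a catalytic mutant. The third (the labelled G9a/GLP DKO below) has genotype G9a-/-;GLP-/-, clone 248-6. G9a and GLP, the products of Ehmt2 and Ehmt1, methylate histone H3 at lysine 9. From line J1 (129S4/SvJae) there were wild type (WT J1), Dnmt3a/3b DKO, which lacks both de novo DNA methyltransferases, and Dnmt1/3a/3b TKO, which also lacks the maintenance enzyme. The other 4 were wild-type TT2 cells: an inhibitor control given DMSO, and cells collected on day 2, 4 or 14 of UNC0638, an inhibitor of G9a and GLP. Sample titles give 250 nM and the treatment protocol 250 µM, and whether day 14 cells were treated all along is not stated in the labels. Each mutant is 1 clone or line, so a difference from wild type describes a pair of libraries.

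Total counts were 11436808 to 25609600 per library. The mean fragment length implied by the deposited effective lengths was 252 to 276 bases in the 4 inhibitor libraries and 151 to 199 bases in the other 6, with WT TT2 the shortest. The inhibitor libraries also stood apart in the rRNA-like signals Lars2 and Gm26917. Lars2 was at 1434 to 2877 CPM there and at 56.9 to 276 CPM elsewhere. Gm26917 was at 1576 to 2272 CPM against 15.1 to 40.5 CPM. AY036118, another such signal, did not separate them. It was at 0 CPM on day 2 and 60.6 CPM on day 14, against 0 CPM in G9a CM and 62.5 CPM in WT J1. CPM is the count scaled to a common library size. For the targeted genes, Ehmt1 was at 7.95 CPM in the labelled G9a/GLP DKO and 38.3 CPM in WT TT2, whereas Ehmt2 was at 17.9 and 14.6 CPM, so Ehmt2 does not separate these libraries. Dnmt3a and Dnmt3b were at 2.68 to 4.76 CPM in both Dnmt mutants against 17.4 and 26.9 CPM in WT J1, and Dnmt1 was at 6.35 CPM in the TKO against 46.7 CPM. All 8 embryonic stem cell markers had counts in every library, at a summed 5975 to 27156 CPM, although Pou5f1 was at 10.3 to 33.3 CPM in the 6 untreated lines and 294 to 455 CPM in the inhibitor libraries. Fibroblast (4 genes), primitive endoderm (3), trophoblast (3) and neural (2) markers summed to 2.21 to 9.69, 0.433 to 8.52, 0.837 to 2.58 and 2.22 to 26.5 CPM. Cdx2 was at 0 counts in 7 libraries, and the highest neural sum, in Dnmt3a/3b DKO, was nearly all Pax6 (24.4 CPM).

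Mitochondrial genes took 1.49% to 5.05% of a library. WT TT2 had 4.24% of its expected counts on them, G9a CM 2.68% and the labelled G9a/GLP DKO 5.05%. WT J1 had 3.57%, Dnmt3a/3b DKO 4.25% and Dnmt1/3a/3b TKO 3.46%. In the inhibitor experiment it was 1.90% in the control, 1.49% on day 2, 1.76% on day 4 and 2.12% on day 14. The lowest of the 6 untreated lines was thus above all 4 inhibitor libraries. On the deposited TPM scale the order was less clear, with 2.95% on day 14 against 2.68% in G9a CM and 2.86% in WT J1. In bulk RNA a different mix of cells and a different amount of mitochondrial RNA per cell cannot be told apart. Exact binomial (Clopper-Pearson) 95% intervals were narrow, for example 4.23% to 4.25% in WT TT2 and 1.89% to 1.90% in the inhibitor control. They cover counting error only, since PCR copies were not told apart by molecular identifiers. WT TT2 and the inhibitor control are both wild-type TT2 cells, so their distance of 4.24% against 1.90% shows how far apart libraries of 1 genotype lie here. No group has a replicate, so no spread within a group could be set beside any difference below.

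**Figure D1:**
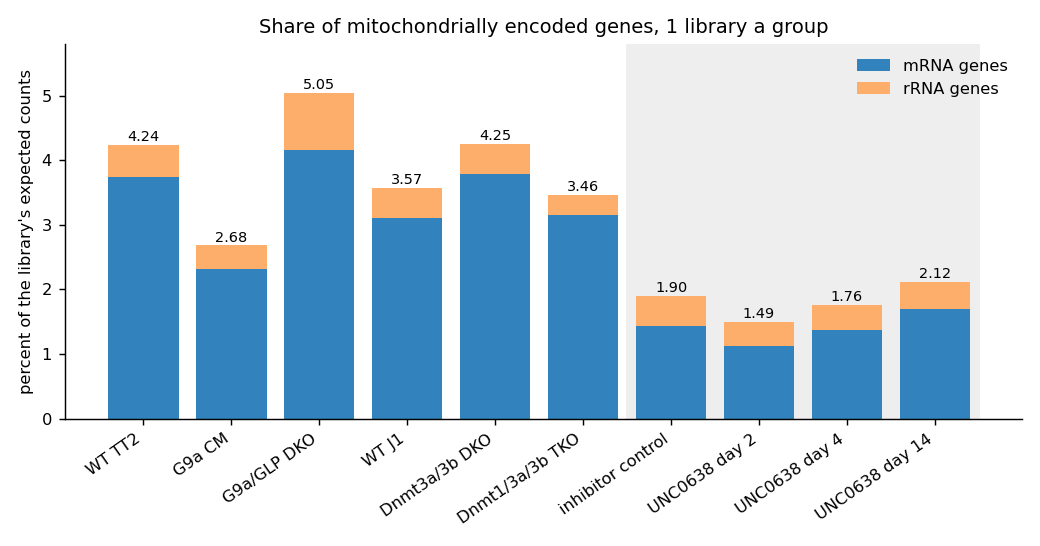
Percent of each library's expected counts that fell on mitochondrially encoded genes, 1 bar a library, split into mRNA and rRNA genes (tRNA genes are too low to see), with the total written above and the inhibitor experiment shaded. The 4 shaded libraries sit between 1.49% and 2.12%, under the 2.68% to 5.05% of the other 6.

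The mRNA genes made up most of this share. They held 3.75%, 2.32% and 4.17% of counts in WT TT2, G9a CM and the labelled G9a/GLP DKO, and 3.10%, 3.79% and 3.16% in WT J1, the Dnmt3a/3b DKO and the TKO. In the inhibitor libraries they held 1.44% in the control and 1.12%, 1.37% and 1.70% on days 2, 4 and 14. The rRNA share was 0.309% to 0.881% in the 6 untreated lines and 0.372% to 0.460% in the inhibitor libraries. The rRNA ranges therefore overlapped between these sets of libraries, while the mRNA ranges did not on the count scale. On the deposited TPM scale they did, with 2.51% on day 14 against 2.38% in G9a CM.

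The 13 protein-coding genes fell into 7 with abundant counts and 6 with almost none. The 7 were mt-Nd1, mt-Nd2, mt-Co1, mt-Nd4, mt-Nd5, mt-Nd6 and mt-Cytb, with 353 to 514105 counts in a library. The 6 were mt-Co2, mt-Atp8, mt-Atp6, mt-Co3, mt-Nd3 and mt-Nd4l, with at most 63 counts in any library and at most 139 summed over all 6. In all 4 inhibitor libraries the 6 genes had 0 counts, which allows up to 3 counts, or 0.153 to 0.220 CPM, for each. The 6 low genes encode 2 of the 3 mitochondrial subunits of cytochrome c oxidase, both mitochondrial subunits of ATP synthase and 2 of the 7 of complex I.

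The 6 low genes are neighbours. With 3 tRNA genes between them they fill 1 unbroken run of 9 genes, MT:7013-10173 (GRCm38), 3161 bases long, while mt-Co1 just before it (MT:5328-6872) and mt-Nd4 just after it (MT:10167-11544) are abundant. In WT TT2, the deepest library, the counts along the run were 36 for mt-Co2, 3 for mt-Atp8, 63 for mt-Atp6, 34 for mt-Co3, 0 for mt-Nd3 and 3 for mt-Nd4l, against 162131 for mt-Co1 and 40704 for mt-Nd4. At its end, mt-Nd4l and mt-Nd4 share the 7 bases MT:10167-10173. A block of nuclear genes on chromosome 1 is known as a copy of part of the mitochondrial genome. RefSeq places there the pseudogenes Gm10222, of 297 bases like mt-Nd4l, and Gm10925, of 681 bases like mt-Atp6 and with mt-Atp6 among its synonyms. They lie 1270 bases apart, against 1269 bases between mt-Atp6 and mt-Nd4l in MT. The 8 genes listed for that block, of which only these 2 have a place in RefSeq, held 0 to 240 counts in a library. RSEM's posterior standard deviation of the count was above 0 in only 2 of the 370 member values, at most 0.03 counts. The 370 include values without a count. Among all gene values with a count it was above 0 in 16.1%, so the bases of these shares differ. Why the run is low was not tested. Statements on the 6 genes below are therefore statements on these tables, and the values of complex V rest on almost no counts.

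**Figure D2:**
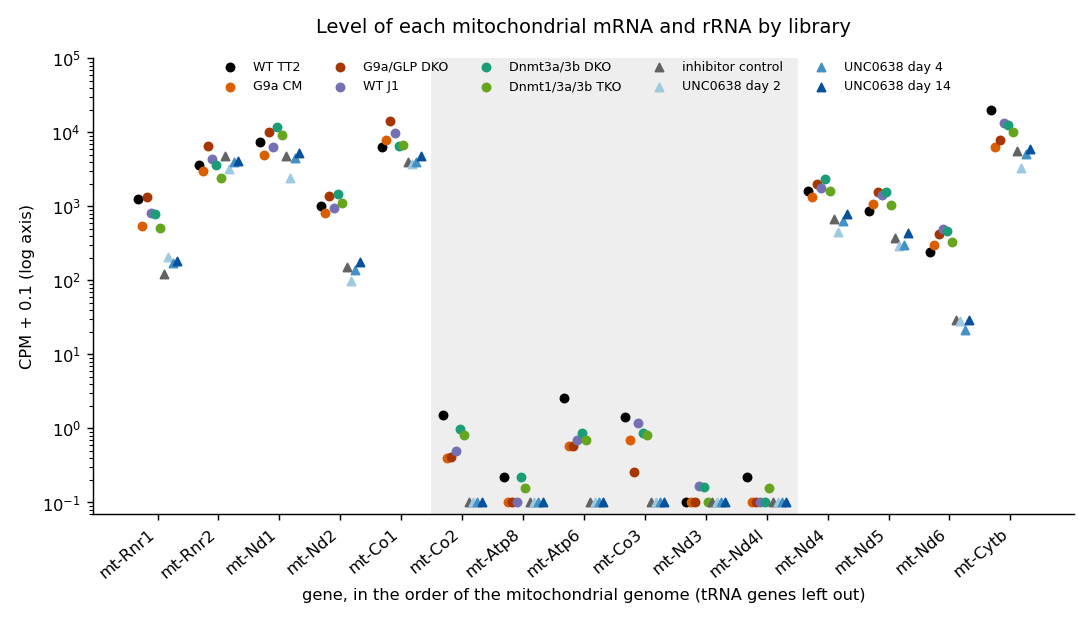
Level of the 13 mRNA and 2 rRNA genes in every library, in genome order, as CPM + 0.1 on a log axis, with circles for the 6 untreated lines and triangles for the inhibitor experiment. The shaded run from mt-Co2 to mt-Nd4l stays under 3 CPM in all libraries, and outside it the triangles lie under all circles except for mt-Rnr2 and mt-Nd1.

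The 22 tRNA genes were almost silent in these libraries. WT TT2 had 93 tRNA counts, G9a CM 17, the labelled G9a/GLP DKO 33, WT J1 49, Dnmt3a/3b DKO 43, Dnmt1/3a/3b TKO 42 and each inhibitor library 0. Over all libraries 11 tRNA genes had no count, and the other 11 shared 277 counts. The most abundant was mt-Tq, the tRNA for glutamine, with 48, 10, 14, 26, 28 and 31 counts in those 6 lines. Next came mt-Tp, the tRNA for proline, with 22, 4, 12, 14, 8 and 8. The next 4 by mean CPM were mt-Tc, mt-Tt, mt-Tm and mt-Tl1, with at most 9 counts in any library. The tRNA genes are 59 to 75 bases long, shorter than the mean fragment of every library. The deposited TPM, which divides by effective length, cannot be read for them: in WT TT2 the effective length of mt-Tq was 1.59 bases and 48 counts gave 1173 TPM, whereas 31 counts in Dnmt1/3a/3b TKO gave 0 TPM. In 27 cases a tRNA gene had a count and a TPM of 0. Only counts are used for tRNAs below, except that TPM shares and TPM calls over all members include them.

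Of the 2 rRNAs, mt-Rnr2, the RNA of the large ribosomal subunit, varied least among the abundant members and mt-Rnr1, the RNA of the small subunit, among the most. WT TT2 had 3676 CPM of mt-Rnr2, G9a CM 2971, the labelled G9a/GLP DKO 6608, WT J1 4371, Dnmt3a/3b DKO 3590 and Dnmt1/3a/3b TKO 2456. The inhibitor control had 4861 CPM and days 2, 4 and 14 had 3242, 3981 and 4143, inside the range of the untreated lines. For mt-Rnr1 the levels in the same order were 1259, 551, 1323, 806, 784 and 517 CPM, and 121, 204, 170 and 181 CPM in the inhibitor libraries. All 4 inhibitor libraries were therefore below all 6 others for mt-Rnr1 and among them for mt-Rnr2. Per length (TPM), mt-Rnr2 was 1.64 to 2.99 times mt-Rnr1 in the 6 lines and 8.31 to 21.3 times in the inhibitor libraries, with the control highest. Both genes come from the same stretch of the heavy-strand precursor. The inhibitor libraries differ from the others in fragment length and in the rRNA-like signals Lars2 and Gm26917 too. The part of these differences in this ratio was not tested.

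Among the mRNAs, mt-Cytb, mt-Nd1 and mt-Co1 dominated in every library. They made up 83.8% to 93.8% of the summed TPM of the 13 mRNAs, a scale that allows genes to be compared per length. mt-Cytb, the cytochrome b of complex III, was at 53.9% in WT TT2 and 40.5% in WT J1. G9a CM had 29.3%, the labelled G9a/GLP DKO 22.2%, Dnmt3a/3b DKO 33.1%, Dnmt1/3a/3b TKO 33.5% and the inhibitor libraries 34.1% to 36.2%. mt-Nd1, a membrane subunit of complex I, ran from 24.0% (WT J1) to 39.6% (day 4). mt-Co1, the catalytic subunit of cytochrome c oxidase, ran from 12.1% (WT TT2) to 27.8% (the labelled G9a/GLP DKO). The order of the 3 changed between libraries: mt-Cytb was highest in WT TT2, G9a CM, WT J1 and day 2, and mt-Nd1 in the other 6. In G9a CM the gap was small, 29.3% against 28.8%.

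**Figure D3:**
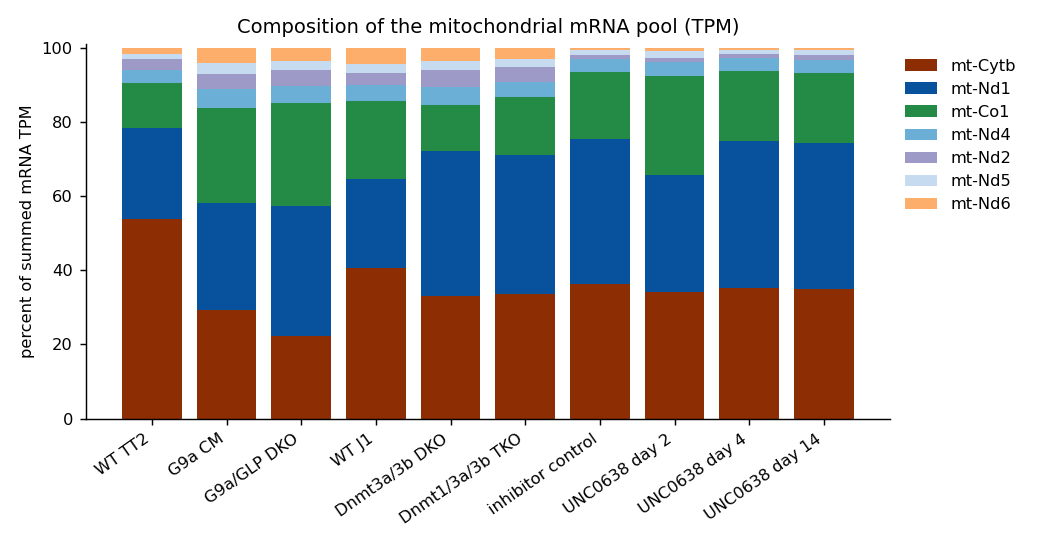
Each mitochondrial mRNA as a percent of the summed TPM of the 13 mRNAs, 1 stacked bar a library (the 6 low genes, under 0.02% each, are not drawn). mt-Cytb takes 53.9% in WT TT2 and 22.2% to 40.5% elsewhere, and mt-Nd2 and mt-Nd6 are thinner in the 4 inhibitor libraries.

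The other abundant complex I genes were lower and split by experiment. mt-Nd4 stood at 3.45% to 5.04% of mRNA TPM, with overlapping ranges. mt-Nd2 stood at 3.03% to 4.42% in the 6 lines and 1.08% to 1.18% in the inhibitor libraries. mt-Nd6 stood at 1.73% to 4.34% and 0.510% to 0.990%, and mt-Nd5 at 1.35% to 2.98% and 1.17% to 1.67%. mt-Nd2 and mt-Nd6 thus separated the inhibitor libraries from the rest without overlap. The TPM ratio of mt-Nd6 to mt-Nd5, its neighbour on the opposite strand, was 1.28 to 1.73 in the 6 lines and 0.423 to 0.593 in the inhibitor libraries. The ratio of mt-Nd1 to mt-Nd2 was 6.85 to 9.29 and 27.1 to 36.7. Smart-seq2 does not mark strand, so the reads of mt-Nd6 and those of heavy-strand RNA across it cannot be told apart.

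In CPM the complex I genes took the following values. For mt-Nd1, WT TT2 had 7436, G9a CM 4979, the labelled G9a/GLP DKO 10018, WT J1 6366, Dnmt3a/3b DKO 11781, Dnmt1/3a/3b TKO 9263, the inhibitor control 4779, day 2 2403, day 4 4502 and day 14 5264. In the same order mt-Nd2 was at 1014, 803, 1369, 960, 1473, 1103, 154, 99.1, 137 and 178. Both were highest in Dnmt3a/3b DKO and lowest on day 2. mt-Nd4 was at 1601, 1344, 2020, 1762, 2359, 1628, 678, 456, 640 and 780 CPM. mt-Nd5 was at 855, 1092, 1579, 1412, 1549, 1034, 378, 288, 301 and 433 CPM. mt-Nd6 was at 241, 298, 429, 497, 466, 326, 28.8, 27.8, 21.0 and 29.1 CPM, the widest span of the abundant members, 23.7-fold from lowest to highest.

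For complexes III and IV, WT TT2 lay at opposite ends of the untreated lines. For mt-Cytb, WT TT2 had 20218, G9a CM 6273, the labelled G9a/GLP DKO 7930, WT J1 13340, Dnmt3a/3b DKO 12430, Dnmt1/3a/3b TKO 10284, the inhibitor control 5567, day 2 3315, day 4 5100 and day 14 6000. WT TT2 was thus the highest of the 10, and its own wild-type counterpart, the inhibitor control, was among the low ones. mt-Co1 was at 6376, 7797, 14149, 9802, 6578, 6764, 3982, 3803, 4007 and 4734 CPM in the same order. Here WT TT2 was the lowest of the 6 untreated lines and the labelled G9a/GLP DKO the highest.

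Differences between libraries were called by size: a difference of at least 1 in log2(CPM + 1), at least 1 CPM in either library, and an exact 95% interval of the count ratio that excludes 1. A member that reaches 1 CPM in either library is called measured. The comparisons with WT TT2 share that library, and those with WT J1 or the inhibitor control share theirs.

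The labelled G9a/GLP DKO had more mt-Co1 and less mt-Cytb than WT TT2. Of 13 measured members, 1 was higher, against 9.77% of all measured genes, and 3 were lower, against 7.09%. Scaled by total count, 3 were higher and 2 lower. mt-Co1 was 2.22-fold higher (counting interval 2.204 to 2.234) and mt-Cytb was 2.55-fold lower (2.53 to 2.57). The others were mt-Atp6, with 6 counts against 63, and mt-Co3, with 2 counts against 34, an 8.49-fold lower CPM with an interval of 2.18 to 73.0. The median log2 difference was 0.00 over the 13 mRNAs, 6 of which hold almost no counts, 0.43 over the 7 abundant ones, and 0.04 over all 14027 measured genes. Summed over the 13 mRNAs the level was 37495 against 37747 CPM, nearly the same, but 2.41-fold higher than the 15566 CPM of the inhibitor control, the other wild-type TT2 library. Against WT TT2, lower mt-Cytb (7930 against 20218 CPM) offset higher levels of all other abundant mRNAs. The summed rRNA level was 1.61-fold higher, 7931 against 4935 CPM, with mt-Rnr2 1.80-fold and mt-Rnr1 1.05-fold higher. Of 6 nuclear RNA and rRNA-like signals 3 were called higher, against 9.77% of all genes, and 1 lower, against 7.09%. Higher were Lars2 at 276 against 105 CPM (2.63-fold), Gm26917 at 37.9 against 15.1 CPM (2.51-fold) and Gm42418 at 10.9 against 4.09 CPM (2.67-fold). AY036118 was lower, at 0 against 47.3 CPM. Their part in the rRNA difference was not tested.

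G9a CM had a lower mitochondrial mRNA level than WT TT2, with mt-Cytb the most different. Of 13 measured members none was higher, against 5.4% of all measured genes, and 3 were lower, against 5.07%: mt-Cytb 3.22-fold (3.20 to 3.24), mt-Rnr1 2.29-fold (2.23 to 2.34) and mt-Atp6, with 8 counts against 63. The median was -0.25 over the 13 mRNAs and over the 7, and -0.03 over all measured genes. The summed mRNA level was 1.67-fold lower, 22588 against 37747 CPM. Most of that gap was mt-Cytb, at 6273 against 20218 CPM. mt-Co1, mt-Nd5 and mt-Nd6 pointed the other way, 1.22-, 1.28- and 1.23-fold higher. Against the inhibitor control, the other wild-type TT2 library, the same sum was 1.45-fold higher, so the direction turned with the control. Against WT J1 it was 1.51-fold lower.

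The 2 G9a lines differed from each other in 1 direction. All 9 abundant members, the 7 mRNAs and both rRNAs, were higher in the labelled G9a/GLP DKO than they were in G9a CM. Of 10 measured members 3 were called higher, against 6.67% of all measured genes, and none lower, against 2.99%. They were mt-Rnr1, 2.40-fold (2.34 to 2.46), mt-Rnr2, 2.22-fold (2.2 to 2.249), and mt-Nd1, 2.01-fold (2.00 to 2.03). mt-Nd1 lies at the threshold, and with TMM factors made without mitochondrial genes it was not called, which left 2. The median was 0.34 over the 13 mRNAs, 0.59 over the 7 and 0.03 over all measured genes. The summed mRNA level was 1.66-fold and the rRNA level 2.25-fold higher.

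No member passed the size rule in either Dnmt mutant. In Dnmt3a/3b DKO against WT J1, none of 11 measured members was higher, against 9.23% of all measured genes, or lower, against 9.89%. The 7 abundant mRNAs went from 1.85-fold higher for mt-Nd1 (11781 against 6366 CPM) and 1.54-fold for mt-Nd2 to 1.49-fold lower for mt-Co1, with a median of 0.13 against 0.01 for all genes. In Dnmt1/3a/3b TKO against WT J1, none of 11 was higher or lower, against 11% and 10.6% of all measured genes. mt-Nd1 was again the highest of the 7, 1.46-fold, and mt-Rnr2 was 1.78-fold and mt-Rnr1 1.56-fold lower. The median of the 7 mRNAs was -0.38, that of the 13 was -0.09 and that of all genes -0.02. In the deposited TPM, where the median of all genes was 0.31, that of the 7 was 0.0039. Both mutants were thus above WT J1 for mt-Nd1 and mt-Nd2 and below it for mt-Co1, and they share that wild-type library.

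Set directly beside each other, the TKO was below the DKO for 8 of the 9 abundant members, mt-Co1 being the exception at 1.03-fold higher. The largest difference was mt-Rnr1, 1.52-fold lower, and the summed levels were 1.21-fold lower for mRNA and 1.47-fold lower for rRNA. None of 10 measured members was called, against 1.79% of all genes higher and 1.35% lower. The median was -0.42 over the 7 mRNAs, -0.15 over the 13 and -0.02 over all genes.

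No member passed the size rule on any day of UNC0638, although 8 of the 9 abundant members were below the control on day 2 in CPM. For mt-Co1 and mt-Nd6 the direction turned with the scaling. As shares of total counts they were above the control, at 0.410% against 0.367% and 0.00300% against 0.00266%. On day 2 none of 9 measured members was called, against 3.12% of all genes higher and 1.84% lower. With DESeq2 size factors 1 was called lower that day, and in the deposited TPM 1 higher. mt-Nd1 came nearest the rule, 1.99-fold lower (2403 against 4779 CPM), and mt-Cytb was 1.68-fold lower, whereas mt-Rnr1 was 1.69-fold higher. The median of the 7 mRNAs was -0.57, and their sum was 1.498-fold lower. On day 4 none of 9 was called, against 1.95% and 0.671%, and the median was -0.13. On day 14 none of 9 was called, against 2.92% and 0.535%, and the median was 0.20, with the mRNA sum 1.12-fold higher. The medians over all genes lay between -0.0026 and 0.0076 on the 3 days, and those over the 13 mRNAs were -0.05, 0.00 and 0.02. The mRNA level was thus lowest on day 2 and slightly above the control on day 14. mt-Rnr1 was above the control on all 3 days (1.69-, 1.41- and 1.501-fold) and mt-Rnr2 below it (1.499-, 1.22- and 1.17-fold).

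**Figure D4:**
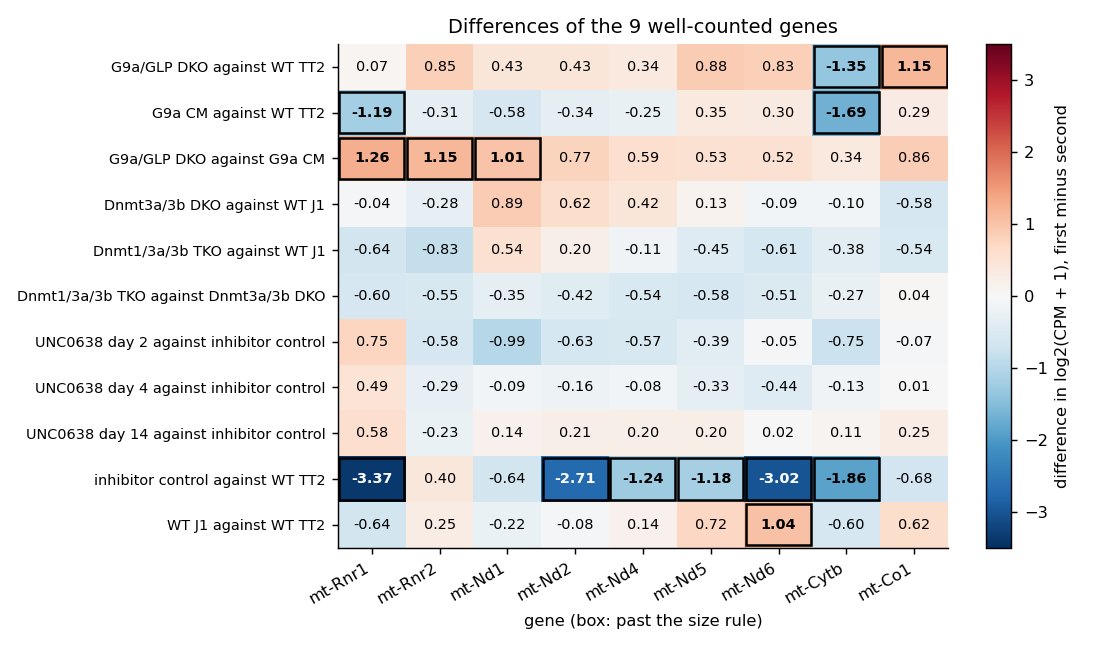
Difference in log2(CPM + 1) of the 9 abundant members (columns) in the 11 comparisons (rows), first library minus second, with red for higher, blue for lower and a box where the size rule was passed. Boxes are most frequent between the 2 wild-type TT2 libraries, and no box appears in the Dnmt or UNC0638 rows.

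The widest gap was between both wild-type TT2 libraries. In the inhibitor control against WT TT2, none of 13 measured members was higher, against 25.2% of all measured genes, and 10 were lower, against 22%. mt-Rnr1 was 10.4-fold lower (9.92 to 10.96), mt-Nd6 8.39-fold, mt-Nd2 6.60-fold, mt-Cytb 3.63-fold, mt-Nd4 2.36-fold and mt-Nd5 2.26-fold. The other 4, mt-Tq, mt-Co2, mt-Atp6 and mt-Co3, had 34 to 63 counts in WT TT2 and 0 in the control. mt-Nd1 (1.56-fold lower) and mt-Co1 (1.60-fold lower) were not called, and mt-Rnr2 was 1.32-fold higher. The median was -1.22 over the 13 mRNAs, -1.24 over the 7 and -0.01 over all measured genes. These libraries carry the same genotype by their labels, and the effects of DMSO, culture and library preparation cannot be told apart. Between wild types of different lines, WT J1 against WT TT2, 1 of 13 was higher, against 12.5% of all genes, namely mt-Nd6 (2.06-fold, 1.99 to 2.13). 1 was lower, against 11%, namely mt-Atp6 with 9 counts against 63. Scaled by total count, only the lower one was called. The median was 0.14 over the 7, -0.16 over the 13 and 0.02 over all genes.

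The 3 wild-type libraries give a scale for the mutants. Their highest level was 1.32 times their lowest for mt-Rnr2, 1.56 times for mt-Nd1, 2.46 times for mt-Co1, 2.60 times for mt-Nd4, 3.63 times for mt-Cytb, 3.74 times for mt-Nd5, 6.60 times for mt-Nd2, 10.4 times for mt-Rnr1 and 17.3 times for mt-Nd6. G9a CM lay inside this range for 8 of the 9 members and below it for mt-Rnr2. The labelled G9a/GLP DKO lay above it for 7 and inside it for mt-Cytb and mt-Nd6. Dnmt3a/3b DKO lay above it for 4 (mt-Nd1, mt-Nd2, mt-Nd4 and mt-Nd5), inside for 4 and below for mt-Rnr2. Dnmt1/3a/3b TKO lay above it for mt-Nd1 and mt-Nd2, inside for 6 and below for mt-Rnr2. Day 2 lay below it for 8 of 9, day 4 for 6, and day 14 lay inside it for all 9. Scaled by total count, day 2 was inside it for mt-Co1 and mt-Nd6. Some mutant placements moved too. mt-Nd6 was then above it in the labelled G9a/GLP DKO (0.0476% of counts) and Dnmt3a/3b DKO (0.0483%), against 0.0451% in WT J1. In the TKO mt-Nd4 was above it (0.169% against 0.160% in WT J1). In Dnmt3a/3b DKO mt-Rnr2 was inside it (0.372% against 0.365% in WT TT2). For 8 of the 9 the lowest wild-type value came from the inhibitor control, so the range also spans the gap between experiments.

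In the labelled G9a/GLP DKO the nuclear subunit lists had medians below 0 against WT TT2. The 7 abundant mitochondrial mRNAs had a median above 0. For complex III both sides were lower: its only mitochondrial mRNA, mt-Cytb, was at 7930 against 20218 CPM in WT TT2. Over all 13 mitochondrial mRNAs the median was 0.00. Against WT TT2, 7 of 37 measured nuclear complex I subunits were lower and none higher, against 7.09% and 9.77% of all genes, with a median log2 difference of -0.62, beside 0.43 for the 7 mitochondrial mRNAs and 0.04 for all genes. Examples were the accessory subunits Ndufb8 (316 against 856 CPM) and Ndufb3 (140 against 344). For complex IV, 6 of 16 were lower and 1 higher (median -0.55), with Cox5b at 190 against 573 CPM and the higher one, Cox7b2, at 13.1 against 1.38. For complexes II, III and V the counts lower were 0 of 4, 1 of 9 and 1 of 17, with medians of -0.44, -0.46 and -0.36. Of 78 mitochondrial ribosomal proteins 10 were lower and none higher (median -0.39), among them Mrps21 (57.8 against 200 CPM).

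In G9a CM the medians were -0.44 for complex I, -0.78 for complex IV and -0.12 for the ribosomal proteins. Called lower were 6 of 37, 2 of 16 and 1 of 78, against 5.07% of all genes, and none was higher, against 5.4%. In this line the 7 mitochondrial mRNAs also had a negative median, -0.25.

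In the Dnmt mutants the nuclear lists with the lowest medians were those of complexes IV and V. In Dnmt3a/3b DKO 8 of 17 were lower and 1 higher (median -0.93), and in Dnmt1/3a/3b TKO 9 were lower and 2 higher (median -1.04). Cox6c was at 762 and 683 CPM in the mutants against 1980 in WT J1, and Cox6a1 at 533 and 488 against 1315, whereas Cox7b2 was at 44.8 and 16.6 against 2.89. These counts and those that follow stand against 9.89% of all genes lower and 9.23% higher in the DKO, and 10.6% and 11% in the TKO. For complex I, 6 and 5 of 37 were lower, with 0 and 1 higher and medians of -0.64 and -0.56. For complex V, 4 and 3 of 17 were lower, with 0 and 1 higher and medians of -0.70 and -0.71. Of the 78 mitochondrial ribosomal proteins 1 was lower in the DKO (median -0.10), and 10 were higher and none lower in the TKO (median 0.23), a share near that of all genes higher. Set directly against the DKO, the TKO had 1 of 78 higher and none lower (median 0.31), against 1.79% and 1.35% of all genes. In the TKO, Mrps34 was at 91.9 against 25.5 CPM and Mrpl12 at 291 against 102 CPM in WT J1. Against WT TT2, however, WT J1 itself had 5 of 16 complex IV subunits higher and none lower (median 0.64). Of the ribosomal proteins, 20 of 78 were lower there and none higher (median -0.39), and all genes gave 12.5% higher and 11% lower. WT TT2 had 769 CPM of Cox6c, 805 of Cox6a1 and 356 of Mrpl12. Its Cox7b2 level, 1.38 CPM, was near that of WT J1. For Cox6c, Cox6a1 and Mrpl12 the distance to the mutants thus depends on the wild type.

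Of 30 measured genes that make and process mitochondrial RNA, 5 were lower and none higher in the labelled G9a/GLP DKO (median -0.23), against 7.09% and 9.77% of all genes. In G9a CM 1 was lower, against 5.07%, and none higher (median 0.05). The 5 included Tefm, a transcription elongation factor (160 against 373 CPM), and Hsd17b10, a subunit of the enzyme that trims tRNA ends (115 against 315 CPM). In Dnmt3a/3b DKO 2 were higher and 4 lower (median -0.13), and in Dnmt1/3a/3b TKO 4 were higher and 3 lower (median 0.08), against the shares of all genes given for these mutants above. Elac2, which cuts the other tRNA end, was at 40.7 and 63.1 CPM in these mutants against 11.6 CPM in WT J1. In WT TT2 it was at 33.5 CPM. Of the 9 genes for mitochondrial DNA replication and nucleotide supply, 2 were lower and none higher in each Dnmt mutant, against the same shares. They were Dguok and Tk2, both kinases that supply deoxynucleotides. Dguok was at 38.4 and 29.1 against 127 CPM, and Tk2 at 7.71 and 8.38 against 21.3 CPM. Among biogenesis regulators 1 of 4 measured was higher in Dnmt3a/3b DKO, against 9.23% of all genes. It was Pprc1, at 40.3 against 19.7 CPM, a log2 difference at the threshold of 1. The mitochondrial RNA polymerase Polrmt was at 5.17 to 8.26 CPM in the 6 untreated lines and at 96.5 to 106 CPM in the inhibitor libraries, and Tfam, which packages mitochondrial DNA and starts its transcription, at 162 to 210 and 119 to 136 CPM.

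On days 2, 4 and 14 of UNC0638 the lists of nuclear genes for mitochondrial function gave 1 call. Of all genes, 3.12% were higher and 1.84% lower on day 2. The shares were 1.95% and 0.671% on day 4, and 2.92% and 0.535% on day 14. The rRNA-like AY036118, outside these lists, was called lower on day 2 and higher on days 4 and 14. No subunit of complexes I to V and none of 78 ribosomal proteins was called on any day, and Grsf1, which binds mitochondrial RNA, was lower on day 2 (28.1 against 81.8 CPM). The inhibitor control against WT TT2 gave many, against 22% of all genes lower and 25.2% higher. Of complex I subunits 30 of 37 were lower and 2 higher (median -1.78), and of complex IV 11 of 16 were lower (median -1.55). Of ribosomal proteins 46 of 78 were lower and 4 higher (median -1.05). Complexes III and V had 5 of 9 and 8 of 17 lower, with 2 and 3 higher (medians -1.57 and -0.995). Other lists were mixed: 11 of 30 RNA-processing genes were lower and 6 higher (median -0.38), and 2 of 5 biogenesis regulators were higher (median 0.86). The mitochondrial mRNAs (median -1.24) were low there together with the subunit and ribosomal protein lists, not with every nuclear list.

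**Figure D5:**
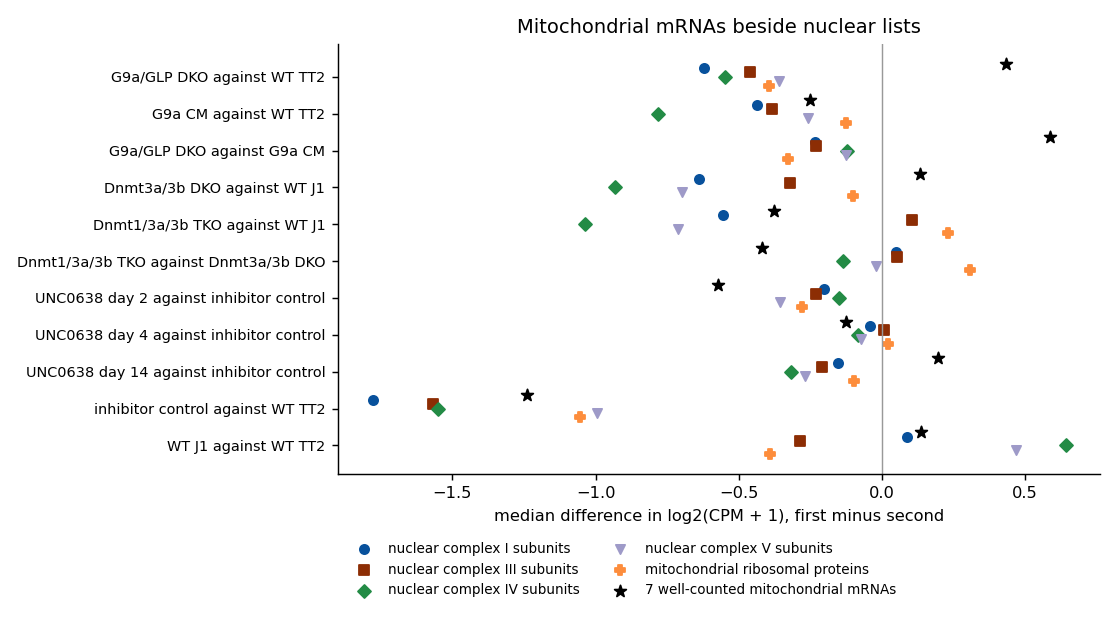
Median difference in log2(CPM + 1) of the 7 abundant mitochondrial mRNAs (star) and of nuclear subunits of complexes I, III, IV and V and mitochondrial ribosomal proteins, in each of the 11 comparisons. In the labelled G9a/GLP DKO against WT TT2 the star is at 0.43 and the nuclear lists at -0.62 to -0.36, and in the inhibitor control against WT TT2 the star is at -1.24 and nuclear complex I at -1.78.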

How the data were processed

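RNA was measured by Smart-seq2 on total RNA, per the labels' protocols, in 10 libraries of 1 per group. The submitters' processing notes name STAR 2.5.3a, RSEM and the build GRCm38 (mm10). The sources used here give neither the annotation release nor the use of strand. In the deposited expected counts RSEM can share out reads that match several genes, and the deposited TPM values are scaled by effective length and library, per the file headers. RSEM's posterior standard deviations, deposited by the authors as another quantity in counts, were used only as a check.

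Expected counts were rounded and scaled with TMM factors (edgeR 4.0.16) over all 10 libraries. Total counts of 11436808 to 25609600 put the floor of 3 counts at 0.118 to 0.236 CPM. With 1 library a group there is no test between conditions. The size rule used a pseudocount of 1 CPM, a minimum of 1 CPM in either library, a log2 difference of at least 1 and an exact 95% conditional binomial interval of the count ratio, which covers counting error only. Abundant (well-counted) members are the 9 with a mean of at least 10 CPM, a split made after seeing the data. Symbols were missing for 147 IDs. Named were all 13 mRNAs, both rRNAs, the 6 highest tRNAs and called ones, and called list genes with at least 10 CPM, at most 4 per list and comparison. Other genes named (targets, markers, Polrmt and Tfam by library) describe the libraries. The members, lists and rules were chosen with earlier results of these data known.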

Additional observations from a re-analysis of the deposited data

How the results depend on the processing

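With 1 library a group no replicate was left out, and the spread of a group is unknown. No paired analysis was possible because the RNA libraries carry no replicate numbers. With the posterior mean count and with the chromosome 1 block added, no value moved. Leaving out the minimum CPM could not change a call. With a pseudocount of 1 CPM, a log2 difference of at least 1 already needs at least 1 CPM in the higher library. Counting error is wide for the 6 low mRNAs and the tRNAs and narrow for the 9 abundant members. Why the former have so few counts was not tested. Unless said otherwise a value below is the median log2 difference of the 13 mRNAs or a number of called members, and the cause of a move was not tested. The 7 abundant mRNAs alone, a choice made after seeing the data, gave 0.43 (labelled G9a/GLP DKO against WT TT2), 0.59 (against G9a CM), -0.38 (TKO against WT J1), -0.42 (TKO against DKO), -0.57, -0.13 and 0.20 (days 2, 4 and 14), -1.24 (inhibitor control against WT TT2) and 0.14 (WT J1 against WT TT2). In the last the sign turned, as 6 low genes weigh on the median of 13.

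With another control, also added after seeing the data, the inhibitor control gave 0.56 for the labelled G9a/GLP DKO. It gave 0.56 for G9a CM, where the sign turned, and WT J1 gave -0.33 for G9a CM. Both values of 0.56 are those of mt-Atp6, with 6 and 8 counts against 0, so their equality has no meaning. The summed mRNA level was 2.41-fold and 1.45-fold that of the inhibitor control. Scaling by total count moved the median of all genes by over 0.1 in several comparisons, by up to 0.21 (day 2), and the deposited TPM by up to -0.35 (WT J1 against WT TT2). Relative to that shift the 7 mRNAs of the TKO against WT J1 stayed below all genes: -0.18 beside 0.16 by total count and 0.0039 beside 0.31 in TPM. Total count gave -0.20 (G9a CM), 0.45 (labelled G9a/GLP DKO against G9a CM), 0.17 (Dnmt3a/3b DKO, with 1 member called, higher), 0.0696 (TKO against WT J1, where the sign turned), 0.00 (day 2), 0.0928 (day 14), -1.27 (inhibitor control) and 1 called in WT J1 against WT TT2. DESeq2 size factors gave -0.24 (G9a CM), 0.35 (labelled G9a/GLP DKO against G9a CM), 0.11 (Dnmt3a/3b DKO), -0.14 (day 2, with 1 called, lower), 0.00 (day 14) and -0.15 (WT J1). TMM without mitochondrial genes gave -0.28 (G9a CM), 0.30 (labelled G9a/GLP DKO against G9a CM, with 2 called, mt-Nd1 no longer among them), -1.26 (inhibitor control) and -0.17 (WT J1).

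The deposited TPM called 18 members (4 higher, 14 lower) in the labelled G9a/GLP DKO against WT TT2, 14 lower in G9a CM, 17 lower in the inhibitor control and 12 lower in WT J1, on a scale where tRNA genes are above 0 in WT TT2 only. It called 3 in Dnmt3a/3b DKO, 1 in the TKO and 1 on day 2, all higher. Its medians were -0.41 (G9a CM), 0.42 (labelled G9a/GLP DKO against G9a CM), 0.44 (Dnmt3a/3b DKO), 0.20 (TKO against WT J1), -0.39 (TKO against DKO), 0.00 (day 2), 0.23 (day 14), -1.42 (inhibitor control) and -0.43 (WT J1). As a share of TPM the members took 4.40% (WT TT2), 4.93% (labelled G9a/GLP DKO), 2.86% (WT J1), 3.32% (TKO), 2.54% (inhibitor control), 2.01% (day 2), 2.39% (day 4) and 2.95% (day 14). Of the WT TT2 share 0.262% was tRNA TPM, from 93 counts, and tRNA TPM was 0 in all other libraries. On the TPM scale day 14 stood above G9a CM and WT J1. Counts per kilobase in place of TPM put the median share of mRNA at 35.1% for mt-Nd1, 20.6% for mt-Co1, 4.17% for mt-Nd4, 2.00% for mt-Nd5 and 1.90% for mt-Nd6.

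A minimum of 10 CPM called 2 members in the labelled G9a/GLP DKO, 6 in the inhibitor control and 1 in WT J1, each against WT TT2. A pseudocount of 0.1 CPM called 6 in G9a CM. A threshold of 1.5-fold called 8 in the labelled G9a/GLP DKO and 5 in G9a CM against WT TT2, 6 between both G9a lines, 2 in Dnmt3a/3b DKO, 3 in the TKO, 1 in the TKO against the DKO, 4 on day 2 and 7 in WT J1.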
